A study of Macaca mulatta with 8 samples.

Results

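The HSP70 and HSP110 chaperones are a family of ATP-driven proteins that bind unfolded stretches of other proteins. They were examined here in cultured rhesus macaque microglia exposed to ultrapure lipopolysaccharide (uLPS), with or without MRS2578, an antagonist of the nucleotide receptor P2RY6. The genes were chosen by their symbols. Of 10 listed symbols, 7 (HSPA8, HSPA9, HSPA4, HSPA4L, HSPH1, HSPA14 and HSPA1L) name a row among the 35432 genes counted, and HSPA1A, HSPA1B and HSPA2 name none. A row with no symbol, ENSMMUG00000041076, is named HSPA1A in the gene list that accompanies the study. Its values are given beside those of the 7 genes, but it was not counted among them.

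HSP70 proteins hold and release their clients in a cycle of ATP hydrolysis. J-domain proteins start the hydrolysis, and nucleotide exchange factors end it by removing ADP. The HSP110 proteins (HSPH1, HSPA4 and HSPA4L) are distant relatives of HSP70 that act mainly as such exchange factors. HSPA8 is the constitutive cytosolic HSP70, HSPA1A is the classical stress-inducible form, and HSPA9 works inside mitochondria. Inducible members are transcribed when heat shock factor 1 binds heat shock elements, which are alternating GAA and TTC units, near their start sites.

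Microglia were isolated from the subcortical white matter of 4 animals, R07110 (male, 13 years), R12016 (male, 9 years), R02046 (female, 19 years) and R14143 (female, 6 years), and cultured with serum and M-CSF for 8 days. On day 7, cells of each animal received 10 µg/mL uLPS alone, or 5 µM MRS2578 for 1 h and then uLPS, and RNA was taken 16 h after uLPS. All 8 libraries, 4 in each group and 1 of each kind per animal, therefore carry uLPS, and no unstimulated library or library with MRS2578 alone was analysed here. The groups thus compare cells of the same animal, and the model is limited to a primary culture and to 1 chemical antagonist. The question addressed was which transcripts of uLPS-exposed microglia change when P2RY6 is blocked.

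The libraries held 9231109 to 32790348 counts. The microglia and macrophage markers summed to 3517 to 4646 counts per 1000000 (CPM) over 9 of 10 listed genes found. CSF1R was at 1007 to 1471 CPM and SPI1 at 403 to 572 CPM. TMEM119 did not exceed 0.316 CPM and CX3CR1 did not exceed 2.21 CPM. The microglia sum was lower with uLPS + MRS2578 than with uLPS in R07110 (3836 against 4362 CPM), R12016 (3983 against 4646 CPM) and R14143 (3517 against 3871 CPM). For R02046 it was 4020 CPM in the library labelled uLPS and 4548 CPM in the other. If the labels of R02046 are exchanged, the sum was lower with uLPS + MRS2578 in this animal as well. All 4 lymphocyte markers together stayed at or below 0.518 CPM. Other lists were detected. With uLPS and with uLPS + MRS2578, respectively, oligodendrocyte markers summed to 61.3 to 71.6 and 65.0 to 75.8 CPM. Astrocyte markers summed to 45.8 to 150 and 57.6 to 127 CPM, and endothelial markers to 155 to 239 and 157 to 291 CPM. With the deposited labels, astrocyte markers were lower with uLPS + MRS2578 (67.5 CPM) than with uLPS (150 CPM) in R14143 alone. Fibroblast and mural markers summed to 80.7 to 985 CPM with uLPS and to 188 to 397 CPM with uLPS + MRS2578. With the deposited labels, they were lower with uLPS + MRS2578 (365 CPM) than without it (985 CPM) in R14143 alone. In R02046, whose labels are in doubt (next paragraph), they were at 318 CPM in the library labelled uLPS and at 397 CPM in the other. With these 2 exchanged, R02046 was also lower with uLPS + MRS2578. The part of cells other than microglia in the differences below was not tested.

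The 2 libraries of R02046 stood against their labels. Over 259 genes, the counts of the library labelled uLPS were proportional to the normalised values published for uLPS + MRS2578 of this animal, and the counts of the other library to those published for uLPS alone. The libraries of the other 3 animals matched the published columns of the same name. Which assignment is right cannot be settled from these sources, and the mismatch leaves the labels of R02046 in doubt. The deposited labels were kept as the main assignment. The fitted differences of the members are also given with the conditions of R02046 exchanged and without R02046. In cultures, a smaller number of cells of a type and less RNA per cell cannot be told apart.

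The start regions of the genes are shown first, because several members are classical targets of heat shock factor 1. Start sites were taken from the RefSeq annotation of Mmul_10 as the outermost upstream base of each gene, and the strand is that of the gene. In the 250 bases before its start, HSPA8 (chromosome 14, 116034417 to 116039055, minus strand) held 2 copies of a 3-unit element, GAANNTTCNNGAA or TTCNNGAANNTTC. Only 0.347% of 20779 protein-coding genes hold such a match in this window on either strand. The capitals mark these elements.
HSPA8, chr14:116039056-116039305, minus strand: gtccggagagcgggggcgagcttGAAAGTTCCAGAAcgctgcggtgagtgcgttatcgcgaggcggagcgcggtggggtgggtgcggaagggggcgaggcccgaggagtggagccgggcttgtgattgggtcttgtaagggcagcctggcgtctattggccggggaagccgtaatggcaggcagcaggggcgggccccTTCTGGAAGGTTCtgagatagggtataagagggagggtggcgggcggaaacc

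A wider window, 250 bases before to 1000 bases after the annotated start, was searched as well. In that window 1.63% of protein-coding genes held the 3-unit element and 41.9% held the shorter 2-unit letters GAANNTTC or TTCNNGAA, which also lie inside every 3-unit element. HSPH1 (chromosome 17, 10184911 to 10211781, minus strand) held a 3-unit element, which begins at base 421 after its annotated start. HSPA4 (chromosome 6, 130486739 to 130543252, plus strand), HSPA1A as RefSeq places it (chromosome 4, 137671024 to 137685835, minus strand), HSPA14 (chromosome 9, 15982647 to 16015191, plus strand) and HSPA9 (chromosome 6, 135965432 to 135987525, minus strand) held 2-unit letters only. HSPA4L (chromosome 5, 125543926 to 125601822, plus strand) held neither in this window. The starts used in these cells were not measured and can differ from the annotated ones, so an absent match holds for this window only. The 3-unit site of HSPH1, the sites of HSPA1A and HSPA4 and both sites of HSPA9 are printed with 8 bases on each side and the matching letters in capitals, to set an inducible HSP70 and 2 HSP110 genes beside the mitochondrial gene.
HSPH1, chr17:10211341-10211369, minus strand: gccgcagaTTCTGGAAAGTTCtgatcagt
HSPA1A, chr4:137685584-137685607, minus strand: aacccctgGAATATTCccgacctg
HSPA4, chr6:130486706-130486729, plus strand: tatcgcgaGAACATTCcgttcttt
HSPA9, chr6:135986878-135986901, minus strand: ttggaggtTTCCAGAAgcgctgcc
HSPA9, chr6:135986692-135986715, minus strand: gtcggaccTTCCCGAAtggggtca
These are matches of letters, and binding of the factor was not measured in these libraries.

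With uLPS alone, constitutive HSPA8 and mitochondrial HSPA9 were the most abundant of the family. Levels were compared between genes as reads per kilobase of exon and per 1000000 counts (RPKM), with exon lengths from RefSeq. HSPA8 was at 888 ± 268 RPKM (SD, n = 4), followed by HSPA9 at 168 ± 18.3, HSPH1 at 68.6 ± 31.2, HSPA4 at 55.3 ± 5.08, HSPA14 at 26.1 ± 1.99, HSPA4L at 13.8 ± 4.80 and HSPA1L at 0.493 ± 0.169 RPKM. HSPA8 and HSPA9 did not overlap with each other or with any gene below them. HSPH1 and HSPA4 overlapped, so their order was not resolved. HSPA4 lay above HSPA14 in all libraries. HSPA14 (24.8 to 29.0 RPKM) and HSPA4L (8.93 to 19.04 RPKM) did not overlap, but the HSPA1A row, at 23.4 ± 31.0 RPKM, spanned both with a range of 5.36 to 69.8 RPKM. Its highest value came from the library labelled uLPS of R02046. With R02046 exchanged the HSPA1A row was at 8.69 ± 2.59 RPKM (5.36 to 10.9), below HSPA14 in all libraries and overlapping with HSPA4L. HSPH1 was then at 54.2 ± 3.68 and HSPA4 at 54.6 ± 4.12 RPKM, so their unresolved order turned, and the other members kept their places.

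**Figure D1:**
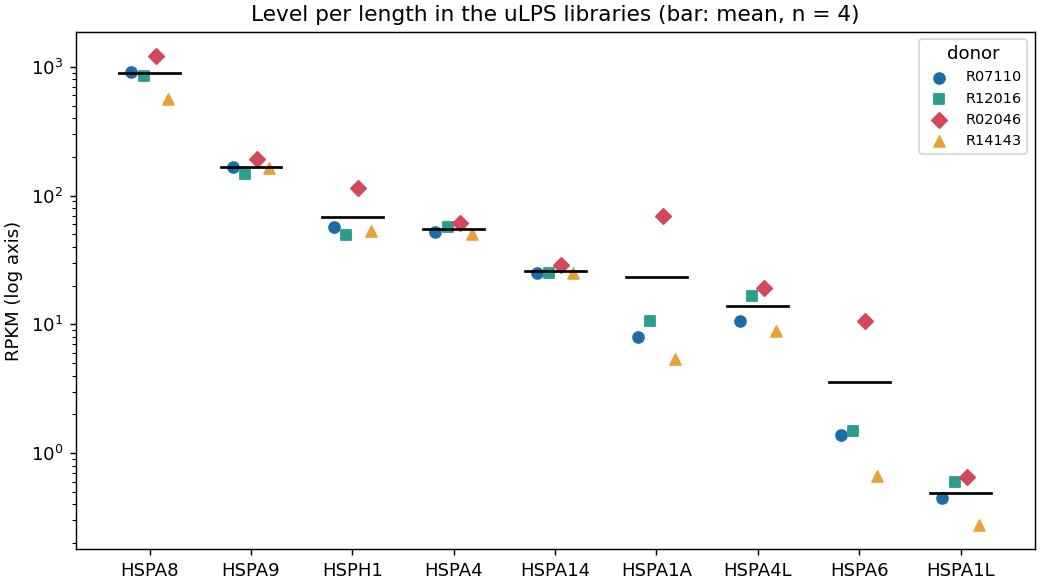
RPKM on a log axis for each gene in the 4 uLPS libraries, with 1 symbol per donor and a black bar for the mean. HSPA8 lies at 565 to 1220 RPKM, above all others, and the HSPA1A and HSPA6 rows show 1 library, of R02046, far above the remaining 3. The labels are those deposited.

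Across the family, HSP110, inducible HSP70, HSPA1L and constitutive HSPA8 transcripts were higher with uLPS + MRS2578 in R07110, R12016 and R14143. The atypical HSP70 HSPA14 differed little, as did mitochondrial HSPA9 except in R12016 (1.40-fold). With the deposited labels no member passed an adjusted p of 0.05 under edgeR's quasi-likelihood fit, in which each animal was its own control, and of all 12131 genes tested 0% did, with 624 at an unadjusted p under 0.05. With R02046 exchanged 0.618% of all genes passed (75, of which 12 were higher), and none of the 7 members did. Without R02046 0% of 12295 genes and 0 of 7 members passed, with 1670 genes at an unadjusted p under 0.05. DESeq2 called 1 gene and edgeR's likelihood ratio test 5 genes with the deposited labels, none of them a member. With R02046 exchanged, each of these tools called 3 members, HSPA8, HSPA4L and HSPH1, among 583 and 616 genes.

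In terms of direction, 6 of 7 members were higher with uLPS + MRS2578 in all of R07110, R12016 and R14143, compared with 17% of all tested genes (2061 of 12131). In 4 of 7 members (HSPH1, HSPA4, HSPA8 and HSPA14) the 3 uLPS + MRS2578 libraries of these animals lay above all 3 uLPS libraries, compared with 5.61% of all genes. At an unadjusted p under 0.05, 4 members were higher with the deposited labels (2.7% of all genes), 5 with R02046 exchanged (6.86%) and 5 without R02046 (5.73%). The median log2 fold change over the 7 members was 0.56 with the labels and 0.63 with the exchange, beside -0.0097 and 0.0012 over all tested genes. Heat shock protein genes were among those that the study singled out from these libraries, so this direction is not independent of that choice.

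**Figure D2:**
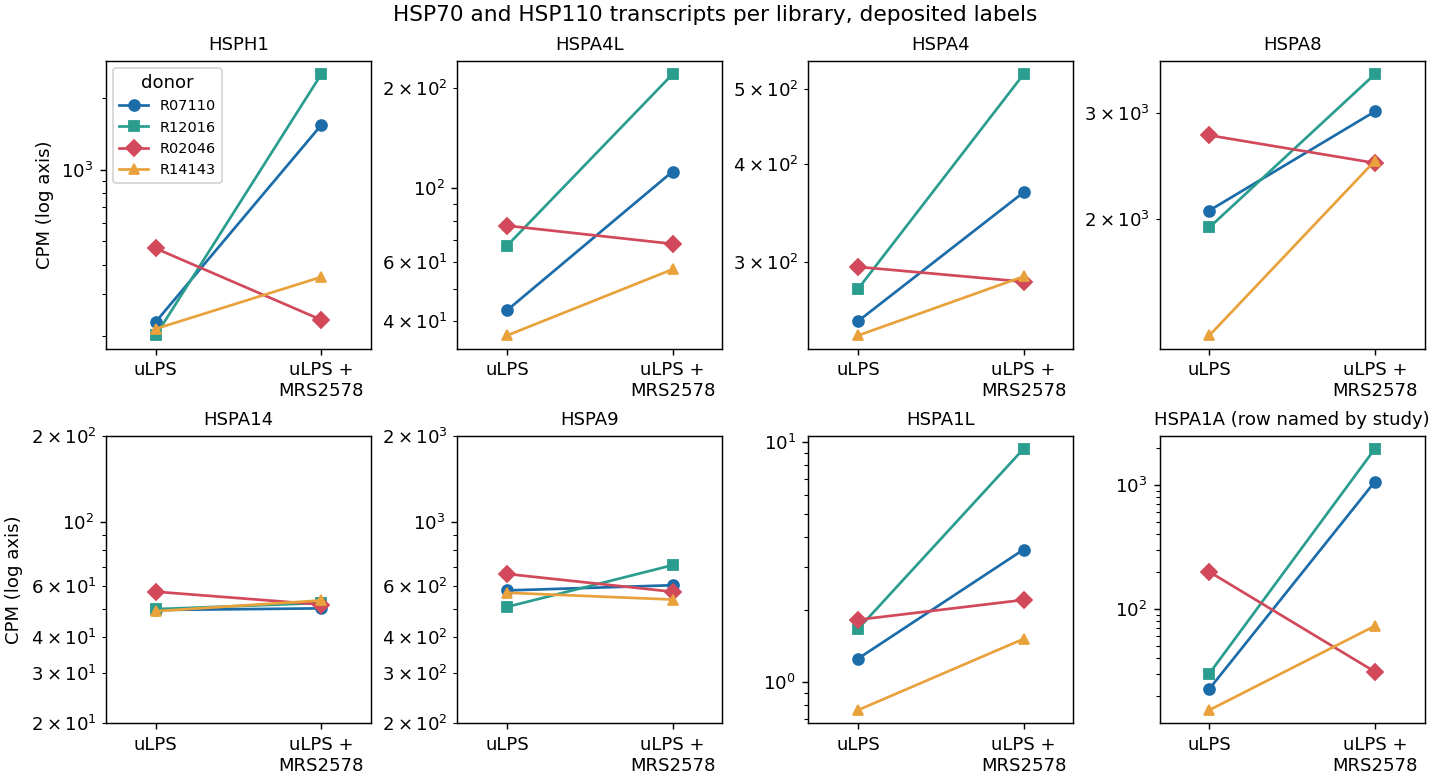
TMM-scaled CPM on log axes for 7 members and the HSPA1A row in each library, with a line joining the 2 libraries of an animal. Lines of R07110, R12016 and R14143 slope upwards for HSPH1, HSPA4L, HSPA4, HSPA8, HSPA1L and HSPA1A, whereas that of R02046 slopes downwards in all of these but HSPA1L.

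HSPH1 (ENSMMUG00000013707), the stress-inducible HSP110, had the highest fitted fold change of the 7 members when all 4 animals were used, under both assignments of R02046. With the labels, HSPA1L exceeded it without R07110 (log2 fold change 1.40 against 1.04) and without R12016 (1.06 against 0.82). In R07110 its level went from 230 CPM (uLPS) to 1542 CPM (uLPS + MRS2578). The corresponding levels were 201 and 2522 CPM in R12016, 215 and 355 CPM in R14143, and 468 and 234 CPM in R02046. In both males the uLPS + MRS2578 library thus lay above all 4 uLPS libraries, and in R14143 it lay below the highest of them, that of R02046. The differences within animals correspond to 6.71-fold, 12.5-fold and 1.65-fold higher levels in the first 3 animals, and to a 0.501-fold level in R02046. The fitted log2 fold change was 1.58 ± 0.79 (SE) with an adjusted p of 0.878 in edgeR, 2.02 ± 0.48 (adjusted p = 0.104) with R02046 exchanged and 2.40 ± 0.56 (adjusted p = 0.194) without it. With the exchange, the uLPS libraries were close to each other, at 201 to 234 CPM with a coefficient of variation of 6.79%, and did not overlap with the uLPS + MRS2578 libraries, at 355 to 2522 CPM.

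HSPA4L (ENSMMUG00000015245), an HSP110 best known from testis that shares the exchange function, showed the same order of animals. It was at 43.1 and 112 CPM in R07110, at 67.3 and 220 CPM in R12016, at 36.2 and 57.2 CPM in R14143 and at 77.3 and 68.2 CPM in R02046, with uLPS and with uLPS + MRS2578, respectively. Its groups overlapped under both assignments of R02046, and its levels with uLPS already spanned 36.2 to 77.3 CPM. In the fit its log2 fold change was 0.90 ± 0.30 (adjusted p = 0.878) with the labels, 0.99 ± 0.23 (adjusted p = 0.102) with the exchange and 1.26 ± 0.20 (adjusted p = 0.138) without R02046.

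HSPA4 (ENSMMUG00000009396), the constitutive HSP110, differed less. Its levels with uLPS were similar in all animals, at 241 to 295 CPM, and with uLPS + MRS2578 they were 368 CPM in R07110, 522 CPM in R12016, 287 CPM in R14143 and 283 CPM in R02046. Only the 2 males lay clearly above the range with uLPS. The log2 fold change was 0.41 ± 0.16 (adjusted p = 0.878) with the labels, 0.45 ± 0.14 (adjusted p = 0.176) with the exchange and 0.57 ± 0.15 (adjusted p = 0.212) without R02046.

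Within animals, the difference of HSPH1 exceeded that of HSPA4 by 2.20 on the log2 scale in R07110, by 2.73 in R12016 and by 0.47 in R14143, and was -0.93 relative to it in R02046. The mean of the 4 was 1.12 ± 1.67 (SD), with p = 0.375 in a two-sided exact sign-flip permutation test. With R02046 exchanged the mean was 1.58 ± 1.06, with an exact p = 0.12 (2 of 16 sign patterns), which is the smallest that 4 animals allow. HSPH1 exceeded HSPA4L by 0.64 ± 1.25 (exact p = 0.375) with the labels and by 1.05 ± 0.80 (exact p = 0.12) with the exchange, and in R14143 by only 0.066. Adjusted over the 4 contrasts computed, the exact p-values were 0.375 with the labels and no lower than 0.167 with the exchange. With 4 animals none of these contrasts could pass 0.05.

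HSPA8 (ENSMMUG00000004696), the constitutive HSP70 that also drives clathrin uncoating and chaperone-mediated autophagy, was the most abundant member throughout. It was at 2062 and 3018 CPM in R07110, at 1933 and 3483 CPM in R12016, at 1276 and 2496 CPM in R14143 and at 2754 and 2476 CPM in R02046. Its largest difference within an animal was that of R14143 (0.97 on the log2 scale), unlike HSPH1, where this animal had a difference of 0.72 and the males of 2.75 and 3.65. With R02046 exchanged the groups did not overlap, at 1276 to 2476 CPM and 2496 to 3483 CPM, a gap of few CPM between the closest libraries. HSPA8 had a log2 fold change of 0.56 ± 0.22 (adjusted p = 0.878) with the labels, 0.63 ± 0.15 (adjusted p = 0.106) with the exchange and 0.79 ± 0.15 (adjusted p = 0.160) without R02046.

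HSPA9 (ENSMMUG00000005875), the mitochondrial HSP70 that pulls imported proteins into the matrix, showed no common direction. It was at 579 and 604 CPM in R07110, at 507 and 709 CPM in R12016, at 568 and 538 CPM in R14143 and at 661 and 573 CPM in R02046. Only R12016 differed by more than 0.21 on the log2 scale. The log2 fold change was 0.064 ± 0.14 (adjusted p = 0.959) with the labels, 0.17 ± 0.11 (adjusted p = 0.495) with the exchange and 0.15 ± 0.14 (adjusted p = 0.693) without R02046. HSPA8 exceeded HSPA9 in its within-animal difference by 0.49 ± 0.41 on the log2 scale, in 4 of 4 animals (exact p = 0.12, the smallest possible). With R02046 exchanged it was 0.46 ± 0.45, in 3 of 4 animals (exact p = 0.25).

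HSPA14 (ENSMMUG00000017173), an atypical HSP70 of the ribosome-associated complex, was the steadiest member. It ranged from 49.0 to 57.3 CPM over all 8 libraries. Its coefficient of variation over the uLPS libraries was 7.66%, beside a median of 21.4% over all tested genes. The library labelled uLPS of R02046 was the highest, and with R02046 exchanged the coefficient was 2.34%. The log2 fold change was 0.017 ± 0.096 (adjusted p = 0.991) with the labels, 0.090 ± 0.086 (adjusted p = 0.661) with the exchange and 0.070 ± 0.098 (adjusted p = 0.806) without R02046. Although its 3 uLPS + MRS2578 libraries of R07110, R12016 and R14143 all lay above the 3 with uLPS, the values were 50.1 to 53.5 CPM and 49.0 to 49.8 CPM.

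HSPA1L (ENSMMUG00000029822), a testis-enriched HSP70 encoded beside HSPA1A, had the lowest counts of the 7 members. They were 41 and 88 in R07110, 26 and 148 in R12016, 15 and 27 in R14143 and 17 and 30 in R02046, corresponding to 0.762 to 1.81 CPM with uLPS and 1.51 to 9.36 CPM with uLPS + MRS2578. It was the only member higher with uLPS + MRS2578 in 4 of 4 animals under the deposited labels. With R02046 exchanged, HSPA1L was lower in this animal (-0.26 on the log2 scale). HSPH1, HSPA4L, HSPA4, HSPA8 and HSPA14 were then higher in 4 of 4 animals. The fit gave a log2 fold change of 1.46 ± 0.38 (adjusted p = 0.878), 1.40 ± 0.40 (adjusted p = 0.151) with the exchange and 1.78 ± 0.34 (adjusted p = 0.160) without R02046. In RefSeq, HSPA1L (listed as LOC716633) spans bases 137673731 to 137691414 of chromosome 4 on the plus strand, and 12105 of these bases lie within the span of HSPA1A on the minus strand. One of its starts is separated by 102 bases from the start of LOC114669856, annotated as heat shock 70 kDa protein 1. LOC114669856 has 1 exon of 2605 bases, 137671024 to 137673628, on the minus strand. It lies wholly within the span of HSPA1A on the same strand and shares its boundary at base 137671024. RefSeq thus does not place LOC114669856 and HSPA1A, whose exons total 2856 bases, at separate loci. The kit kept strand, but the strand setting of the counting is not given in the sources used here, so reads of HSPA1L and of its opposite-strand neighbours cannot be told apart.

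The bases between these divergent starts are shown because both genes share them. The capitals mark 2-unit letters.
HSPA1L, chr4:137673629-137673730, plus strand: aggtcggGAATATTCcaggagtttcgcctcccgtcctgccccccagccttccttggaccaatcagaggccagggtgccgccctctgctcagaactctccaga

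The row named HSPA1A by the study, the stress-inducible HSP70, had the largest fold differences within animals. It was at 22.7 and 1063 CPM in R07110, at 30.1 and 1958 CPM in R12016, at 15.3 and 73.0 CPM in R14143 and at 199 and 31.2 CPM in R02046. These correspond to 46.7-fold, 64.8-fold and 4.75-fold higher levels with uLPS + MRS2578 in the first 3 animals, and to a 0.157-fold level in R02046. The fit gave a log2 fold change of 3.41 ± 1.72 (adjusted p = 0.878) with the labels, 4.17 ± 0.71 (adjusted p = 0.0526) with the exchange and 4.75 ± 0.83 (adjusted p = 0.146) without R02046. With the exchange it passed in 4 of 11 alternatives, in DESeq2 (adjusted p = 9.8e-05), in edgeR's likelihood ratio test (adjusted p = 8.0e-07), with no filter (adjusted p = 0.040) and without R14143 (adjusted p = 0.0087). The paper states that only unique reads in exons were counted. How many reads of this row also fit near-identical copies was not measured, so its counts are uncertain. Its within-animal difference exceeded that of HSPA8 by 2.23 ± 3.64 on the log2 scale (exact p = 0.375) with the labels and by 3.49 ± 1.91 (exact p = 0.12) with the exchange.

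**Figure D3:**
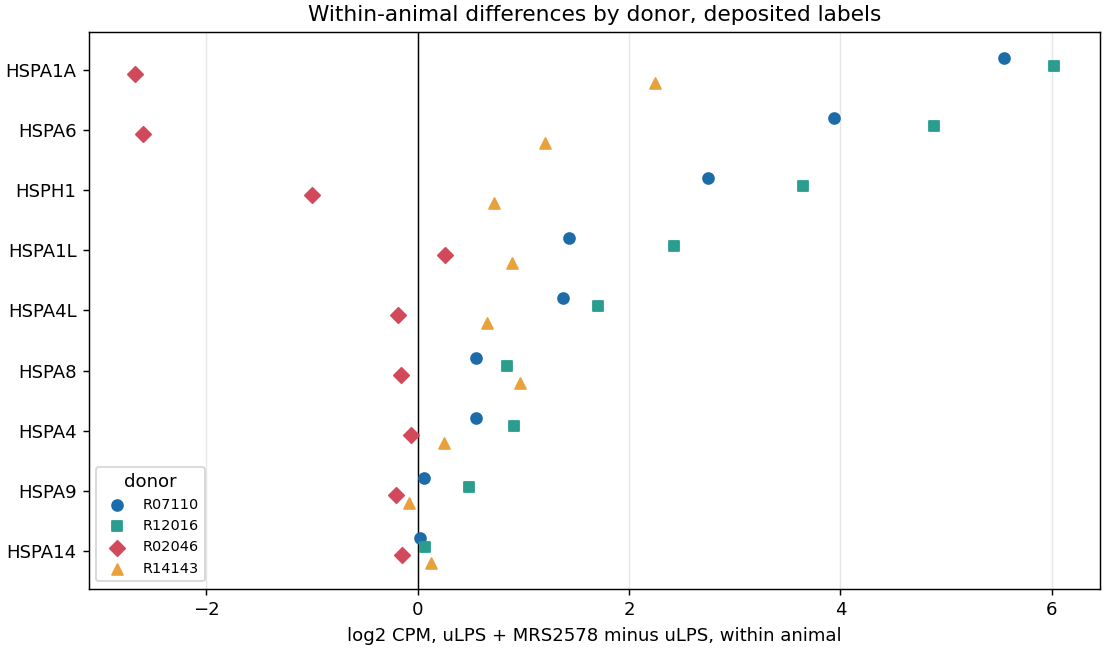
Within-animal differences in log2 CPM (uLPS + MRS2578 minus uLPS, prior count 2) for 9 rows, with 1 symbol per donor. R12016 and R07110 lie farthest to the right for HSPA1A, HSPA6, HSPH1, HSPA1L and HSPA4L, R02046 lies left of 0 for all but HSPA1L, and HSPA9 and HSPA14 cluster near 0.

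By class, the inducible genes (HSPA1A row and HSPH1) had median within-animal differences of 4.15 in R07110, 4.83 in R12016, 1.49 in R14143 and -1.83 in R02046, on the log2 scale. The constitutive genes (HSPA8, HSPA4 and HSPA14) had 0.55, 0.85, 0.25 and -0.15 in the same order, and mitochondrial HSPA9 had 0.060, 0.48, -0.078 and -0.21. The order of the class medians was therefore inducible, constitutive, mitochondrial in R07110, R12016 and R14143. Within the constitutive class, HSPA14 (0.019 in R07110 and 0.071 in R12016) lay below HSPA9 in both males. With R02046 exchanged, HSPA9 in this animal (0.21) lay above HSPA8 (0.15), HSPA4 (0.063) and HSPA14 (0.15). The median over the 4 animals was 2.82 for the inducible, 0.40 for the constitutive and -0.0090 for the mitochondrial class, and 2.99, 0.40 and 0.13 with R02046 exchanged. HSPA1B is an inducible member for which no row was found, and HSPA4L and HSPA1L were placed in no class, so the contrast covers a subset of the family.

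As a share of the summed CPM of the 7 members, HSPH1 took 7.14% with uLPS and 27.1% with uLPS + MRS2578 in R07110, and 6.63% and 33.5% in R12016. In R14143 the shares were 9.0% and 9.36%, and in R02046 10.8% and 6.35%. The summed CPM itself went from 3217 to 5698 in R07110, from 3037 to 7518 in R12016 and from 2386 to 3789 in R14143, and was 4314 with uLPS and 3688 with uLPS + MRS2578 in R02046. In R14143, HSPA8 took 53.5% of the sum with uLPS and 65.9% with uLPS + MRS2578, and in R02046 63.8% and 67.1%, whereas in the males its share was lower with uLPS + MRS2578 (53.0% in R07110 and 46.3% in R12016) than with uLPS (64.1% and 63.6%). The makeup of the family thus differed between animals as well as its level.

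The sexes were compared by an interaction term. For HSPH1 the fitted difference between uLPS + MRS2578 and uLPS was larger in the males by 3.33 ± 0.57 on the log2 scale (adjusted p = 0.0753 in edgeR) with the labels and by 2.33 ± 0.30 (adjusted p = 0.0541) with the exchange. No member passed this interaction test, which 0.0989% of genes passed with the labels and 0.0659% with the exchange. With 2 animals of each sex, sex cannot be told apart from other differences between these animals.

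Of 6 further HSP70 relatives, 5 were tested, and the exception, HSPA12B, had 0 to 3 counts per library. All 5 were higher with uLPS + MRS2578 in R07110, R12016 and R14143, and the median log2 fold change was 1.00 with the labels and 1.29 with the exchange. HSPA6 (ENSMMUG00000039212), a strictly inducible HSP70 whose row is also named only by the study, was at 3.93 and 61.9 CPM in R07110, at 4.21 and 128 CPM in R12016, at 1.88 and 4.47 CPM in R14143 and at 30.1 and 4.90 CPM in R02046. It was the only one of these genes to pass with R02046 exchanged, with a log2 fold change of 3.49 ± 0.49 (adjusted p = 0.0358), and it did not with the labels (2.31 ± 1.38, adjusted p = 0.878). This call was lost without R07110 (adjusted p = 0.303), without R12016 (adjusted p = 0.0975), without R02046 (3.72 ± 0.63, adjusted p = 0.141) and without the donor block (adjusted p = 0.766), and it was kept in 5 of the 11 alternatives run with the exchange. HSPA5, the HSP70 of the endoplasmic reticulum, had within-animal differences of 1.90 and 2.61 in R07110 and R12016, 0.13 in R14143 and -0.66 in R02046. HSPA12A, a divergent relative with 4 to 72 counts, was higher in 4 of 4 animals with the labels. Its log2 fold change was then 1.80 ± 0.37 (adjusted p = 0.878 in edgeR). With the exchange it was 1.29 ± 0.51 (adjusted p = 0.266 in edgeR), and the difference in R02046, 1.49 with the labels, changed sign. HYOU1, the HSP110-like exchange factor of the endoplasmic reticulum, had a log2 fold change of 0.27 ± 0.16, and HSPA13 of 0.19 ± 0.10 (both with an adjusted p of 0.878).

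Partners of HSP70 were summarised over a list of 15 genes, of which 14 were tested and none passed under either assignment. Their median log2 fold change was 0.073 with the labels and 0.19 with the exchange, and 6 of 14 were higher in all of R07110, R12016 and R14143. The co-chaperone BAG3, an exchange factor that links HSP70 to autophagy, had the highest log2 fold change, at 2.00 ± 1.19 (adjusted p = 0.878), and 2.76 ± 0.60 with the exchange (adjusted p = 0.0931). The J-domain protein DNAJB1 followed at 1.75 ± 0.87 and 2.20 ± 0.54 (adjusted p = 0.108 with the exchange). DNAJB4 was at 0.72 ± 0.41 and DNAJA1 at 0.66 ± 0.25, both J-domain proteins. GRPEL2, an exchange factor of mitochondrial HSPA9, was at -0.51 ± 0.14 with the labels and was then lower with uLPS + MRS2578 in 4 of 4 animals. With the exchange it was at -0.43 ± 0.17, and its difference in R02046, -0.20 with the labels, changed sign. Its paralogue GRPEL1 was at 0.0048 with the labels and at 0.25 with the exchange. HSF1, the factor that drives the inducible genes, was at -0.18 ± 0.093. GRPEL1 and HSF1 were named after their values were seen.

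**Figure D4:**
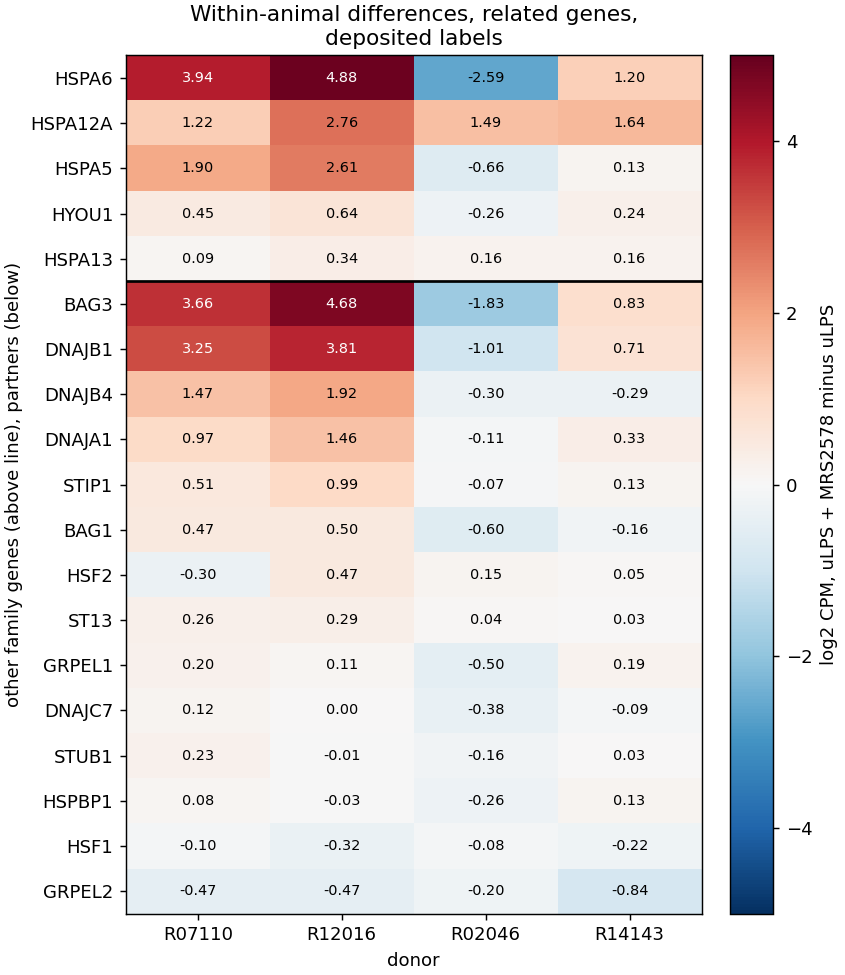
Within-animal differences in log2 CPM for 5 further HSP70 relatives (above the line) and 14 partners (below), by donor, with red for higher and blue for lower with uLPS + MRS2578. BAG3, DNAJB1 and HSPA6 have the deepest red in R07110 and R12016 (3.25 to 4.88) and are blue in R02046 (-2.59 to -1.01).

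Likeness of log2 CPM over the 8 libraries was ranked only among genes with a symbol, without the members of the family. Rows without a symbol, among them those named HSPA1A and HSPA6 by the study, were not ranked. Of the ranked genes, those most like HSPH1 were DNAJB1 (Pearson r = 0.997), TSPYL2 (0.995), BAG3 (0.994), HSPD1 (0.992) and HSPA5 (0.990). For HSPA9 they were CKS2 (0.985), BTBD16 (0.977), BRD8 (0.942), COP1 (0.935) and BTF3 (0.934). The 8 points of each come from 4 animals and share their libraries and depths, so these values are a description.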

How the data were processed

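RNA of the 8 cultures was sequenced with a directional kit. The authors deposited 1 table of raw counts per gene and library (whole reads per Ensembl gene, not normalised). The submitters' processing notes name Trimmomatic 0.30, TopHat2 2.0.14, SAMtools 1.3 and HTSeq 0.6.1p1, whereas the paper names another trimmer and aligner and other versions of SAMtools and HTSeq; both give Mmul_10. Members and lists were chosen with earlier results of these data known. The named genes were the members, 6 relatives and up to 5 of 15 partners by size of the log2 fold change. Also named were the 5 genes most like HSPH1 and HSPA9, among genes with a symbol other than the members.

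In edgeR 4.0.16 (R 4.3.3), genes were filtered by filterByExpr (minimum count 10), scaled by TMM and tested by the quasi-likelihood F-test, with animal as a blocking factor and p-values adjusted after Benjamini-Hochberg (threshold 0.05). CPM are TMM-scaled, and log2 CPM used a prior count of 2. SE is the log2 fold change divided by the square root of F. Same-numbered libraries come from the same animal, and their deviations from the group means correlated at 0.458 to 0.602. No libraries were alike within sampling noise (smallest chi-square per degree of freedom over 28 pairs, 19.6). The floor of detection, 3 counts, corresponds to 0.0915 to 0.325 CPM. It covers counting error only. DESeq2 1.42.0 and other settings were alternatives. The scripts were tested on simulated counts. RefSeq sequences and exon lengths are of Mmul_10, while counting used Ensembl genes. Symbols were absent for 11503 genes.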

Additional observations from a re-analysis of the deposited data

Results flagged for a closer look

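In 4 groups of 4 libraries 1 library stood apart from the other 3 by Dixon's ratio, out of 27 sets of 4 values examined (levels by group, and within-animal differences). About 1 in 20 such sets is expected by chance. In each case it was the library labelled uLPS of R02046, whose conditions are in doubt. The ratio was 0.893 for HSPH1, 0.902 for HSPA14, 0.919 for the HSPA1A row and 0.917 for the HSPA6 row.

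HSPA9 was higher with uLPS + MRS2578 in both males and lower in both females with the deposited labels, a difference of 0.41 between the mean log2 differences of the sexes. The interaction itself did not pass (adjusted p = 0.332 in edgeR), and with R02046 exchanged the females no longer had a common direction. For the HSPA1A row, the interaction passed with R02046 exchanged, where the log2 difference was larger in the males by 3.31 ± 0.25 (SE, adjusted p = 0.00764 in edgeR), and did not with the labels (6.03 ± 1.49, adjusted p = 0.116).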

How the results depend on the processing

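With the deposited labels, 89 of 91 values of the 7 members under the alternatives kept their direction and stayed above the adjusted threshold of 0.05. The exceptions were HSPA9, from -0.070 (without R12016) to 0.15 (without R02046) on the log2 scale on leaving out 1 animal, and HSPA14, from -0.023 (without R14143) to 0.070 (without R02046). The sex interaction of HSPA14 turned from 0.054 to -0.092 with R02046 exchanged. The count of genes called, 0, became 75 with R02046 exchanged, 1 with DESeq2 and 5 with the likelihood ratio test, and stayed at 0 without each animal in turn and without the replicate block. The count of members called was 0 under all of these. With R02046 exchanged, the 75 genes became 39 with edgeR's earlier estimation (chosen after seeing the data), 14 with total counts, 583 with DESeq2, 616 with the likelihood ratio test, 32 with at least 10 counts in every library, and 0 without the donor pairing (no replicate block). Leaving out 1 animal gave 0 (without R07110) to 918 (without R14143) genes, and 5 without R12016. The number of members called there, 0, became 3 with DESeq2 and 3 with the likelihood ratio test, and 0 to 2 on leaving out 1 animal (2, HSPH1 and HSPA4L, without R14143). The class medians moved by less than 1 SD, to 4.15, 0.55 and 0.060 for the inducible, constitutive and mitochondrial genes without R02046. The causes were not tested. Summing HSPA1A and HSPA1B was not run, since no row for HSPA1B was found. Depth limits HSPA1L, with 15 to 148 counts.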
